A study of Mus musculus with 18 samples.

Results

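Kit and Kitl, the gene of the KIT receptor (CD117) and the gene of its ligand (stem cell factor), were described in perinatal and adult mouse bone marrow (BM). They are 2 of the 20275 genes of the deposited single-cell count matrix and were taken by symbol. Kit was read in the cells that the deposited annotation types as hematopoietic, and Kitl in those typed as stromal. Each was read per library and per annotation code, the cluster name that the authors gave to every cell.

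KIT is a receptor tyrosine kinase. Binding of KIT ligand pairs 2 receptor molecules, and the phosphorylated receptor then recruits SRC-family kinases, PI3-kinase, GRB2 and STAT5. Hematopoietic stem cells and early progenitors depend on the pair, whereas most lineages lose the receptor as they mature and mast cells keep it. In adult BM, KIT ligand is known to come from CXCL12-abundant reticular cells (CARs), which surround sinusoids, and from endothelial cells (ECs), and it acts either on the membrane of the niche cell or as a shed, soluble protein.

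The libraries were prepared from C57B6/J mice at embryonic day 16.5 (E16.5), embryonic day 18.5 (E18.5), postnatal day 0 (P0) and in adults. At each stage hematopoietic progenitors (HPs) were sorted as Lineage-Kit+ BM cells and stroma as CD45-Ter119- BM cells. E16.5 HPs gave 2 mRNA libraries, and every other stage and sort gave 1, so there were 5 HP and 4 stromal mRNA libraries, each with a library of antibody tags from the same cells. The labels name no transgene or treatment. Per the study's methods, cells of several mice were pooled for each library, so no library is a single animal and the p-values below measure the spread between libraries only. The HP gate selected on KIT protein, so Kit mRNA in HPs was measured in cells already chosen for the receptor. The deposited tag table lists a CD117 tag with 0 counts in all 9 libraries. Whether that antibody was used is not given in the sources used here, and KIT protein is not set beside the mRNA.

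The matrix held 20982 HPs and 35219 stromal cells. Median unique molecular identifiers (UMIs, 1 per captured transcript) per cell were 6747 to 23292 in HP libraries and 11810 to 15591 in stromal libraries. A level is given here as the UMIs of the gene per 1000000 UMIs of the summed cells (CPM), with an exact Poisson 95% interval that covers counting error only. Codes with at least 20 cells are described, 81 code and library pairs of 88 for HPs and all 66 for stroma. The clusters were made from expression that included both genes, so codes are set beside each other without a test.

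The libraries shared cell barcodes, which bears on several Kit values. Of the 36 pairs of libraries, 34 had at least 1 barcode of 16 bases in common. E18.5 and adult HPs shared 375 barcodes, and the first E16.5 HP library shared 330 of its 560 with adult HPs and 153 with P0 HPs. A shared barcode had a median of 47.1 times as many UMIs in the first E16.5 HP library as in adult HPs (quartiles 45.6 to 48.7), and 69.3 times as many as in P0 HPs (66.1 to 71.4), both narrow ratios. Between E18.5 and adult HPs the ratio was wider, with a median of 117 and quartiles of 57.9 to 122. In all, 641 adult HPs, 154 P0 HPs and 59 E18.5 HPs carried a barcode with at least 10 times as many UMIs in another library. They included 185 of the 201 adult Mast4i cells, 78 of 120 adult Mast4ii cells, 332 of 701 adult MyP4 cells, 152 of 274 P0 Mast4 cells, 24 of 41 E18.5 Mast/Bas cells, and 21 of 817 UD2i and 13 of 126 UD2ii cells of E18.5. Values for the Mast4, Mast/Bas and MyP4 codes are given with and without such cells, whose origin was not tested. Among stromal libraries the shared barcodes were 1.34% to 1.67% of cells, and they moved no Kitl level by more than a factor of 1.02 among the 4 highest codes of each library.

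Both genes make several proteins by splicing, and the stretches that set them apart are shown because the counts cannot see them. Kit (ENSMUSG00000005672) lies on chr5:75574916-75656722 of GRCm38, plus strand, with 21 exons in its longest GENCODE M21 transcript. Kitl (ENSMUSG00000019966) lies on chr10:100015630-100100416, plus strand, with 10 exons. Exon 6 of Kitl (chr10:100080857-100080940), which codes for the main cleavage site of the membrane protein, is in capitals below between 24 bases of each neighbouring exon, and it is present in transcript Kitl-202 and absent from Kitl-201.
Kitl exon 6: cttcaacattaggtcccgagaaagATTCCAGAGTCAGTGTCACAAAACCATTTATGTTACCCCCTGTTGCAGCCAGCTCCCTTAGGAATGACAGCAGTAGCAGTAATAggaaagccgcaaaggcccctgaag
In Kit, the last 12 bases of exon 9 (chr5:75638965-75639158), in capitals, are in transcript Kit-201 and absent from Kit-204, and they give the receptor forms with and without a short insert next to the membrane.
Kit exon 9: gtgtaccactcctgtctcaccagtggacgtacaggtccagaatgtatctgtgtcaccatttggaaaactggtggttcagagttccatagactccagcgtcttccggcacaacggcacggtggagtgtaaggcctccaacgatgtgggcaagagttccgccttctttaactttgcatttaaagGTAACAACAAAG
The Kitl exon ends 4653 bases, and the Kit stretch 3568 bases, before the 3′ end of its transcript. The libraries count the 3′ end, so every Kit and Kitl value below sums these forms.

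Across all HPs, Kit stood at 348 CPM (338 to 358) in the first and 188 CPM (185 to 190) in the second E16.5 library. It stood at 127 CPM in E18.5, 154 CPM in P0 and 109 CPM in adult HPs. Both E16.5 libraries were above every later library, and they also differed from each other by more than their counting error. A Kit UMI was present in 70.0%, 64.5%, 44.0%, 76.9% and 43.5% of cells, in the same order, against 1.07% to 1.72% of cells in the stromal libraries (median depths 11810 to 15591 UMIs), which should largely lack the receptor. Median depth ran from 6747 UMIs per cell in adult HPs to 23292 in the first E16.5 library, so these shares also follow depth. With cells of at least 1000 UMIs thinned to 1000, they were 23.0%, 16.4%, 9.21%, 13.3% and 11.0%. P0 was then below both E16.5 libraries, and the adult above E18.5.

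Codes named Mast were highest in Kit in every HP library, in the adult as shallow codes that are taken up apart. In E16.5, Mast1 had 593 CPM (563 to 624) in the first and 500 CPM (487 to 512) in the second library, Mast2i had 483 and 434 CPM, and Mast2ii had 472 and 377 CPM. Mast3 had 630 CPM (606 to 654) in E18.5 and 709 CPM (683 to 736) in P0. These codes had UMIs of Kit in 97.2% to 100% of cells, the highest shares but for HSPC4 in P0 at 99.1%, and after thinning every cell to 1000 UMIs in 29.4% to 50.8%. Mast cell markers were present in these codes at different levels. The 6 mast cell markers (Cpa3, Tpsb2, Cma1, Mcpt4, Gata2 and Ms4a2) summed to 69400 and 84627 CPM in Mast1 of the 2 E16.5 libraries. In Mast3, where Kit was higher, they summed to 16845 CPM in E18.5 and 24551 CPM in P0. In Mast1 cells with at least 5 Kit UMIs they summed to 68367 and 80169 CPM in the 2 libraries. Within Mast1 the sum was higher in cells with fewer Kit UMIs, at 91753 and 100958 CPM in the 8 and 217 cells with 1 to 4 and at 111823 and 93731 CPM in the 1 and 12 cells with none, which were also shallower.

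The later codes named Mast4, and Mast/Bas of E18.5, were shallow and shared most of their barcodes. Adult Mast4i, led by the mast cell protease genes Mcpt4 and Cma1, shared 181 of its 201 barcodes with the first E16.5 HP library. It had 467 CPM (364 to 589) from 70 Kit UMIs and Mast4ii 257 CPM (172 to 368) from 29, at medians of 667 and 798 UMIs per cell. Without the cells whose barcode had at least 10 times the UMIs elsewhere, Mast4i stood at 524 and Mast4ii at 277 CPM, from 24 Kit UMIs over both codes. Without every shared barcode only 7 and 22 of their 201 and 120 cells were left. E18.5 Mast/Bas had 444 CPM (221 to 794) from 11 Kit UMIs, 453 CPM from 6 UMIs without the cells of lower depth, and 1 cell without any shared barcode. P0 Mast4 had 248 CPM, which came to 150 CPM without the cells of lower depth and to 109 CPM without all shared barcodes. The leading genes of P0 Mast4 included the fibrillar collagens Col3a1 and Col1a1, and those of adult Mast4ii the macrophage genes C1qc, C1qb and Mrc1. Each code also had 2 mast cell markers among its 10 leading genes and 5 of the 6 over 2-fold above the rest of its library. The mast cell markers summed to 19998 CPM in P0 Mast4 and 20030 CPM in adult Mast4ii, against 24551 CPM in P0 Mast3. Whether these 2 codes hold more than 1 kind of cell was not tested.

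**Figure D1:**
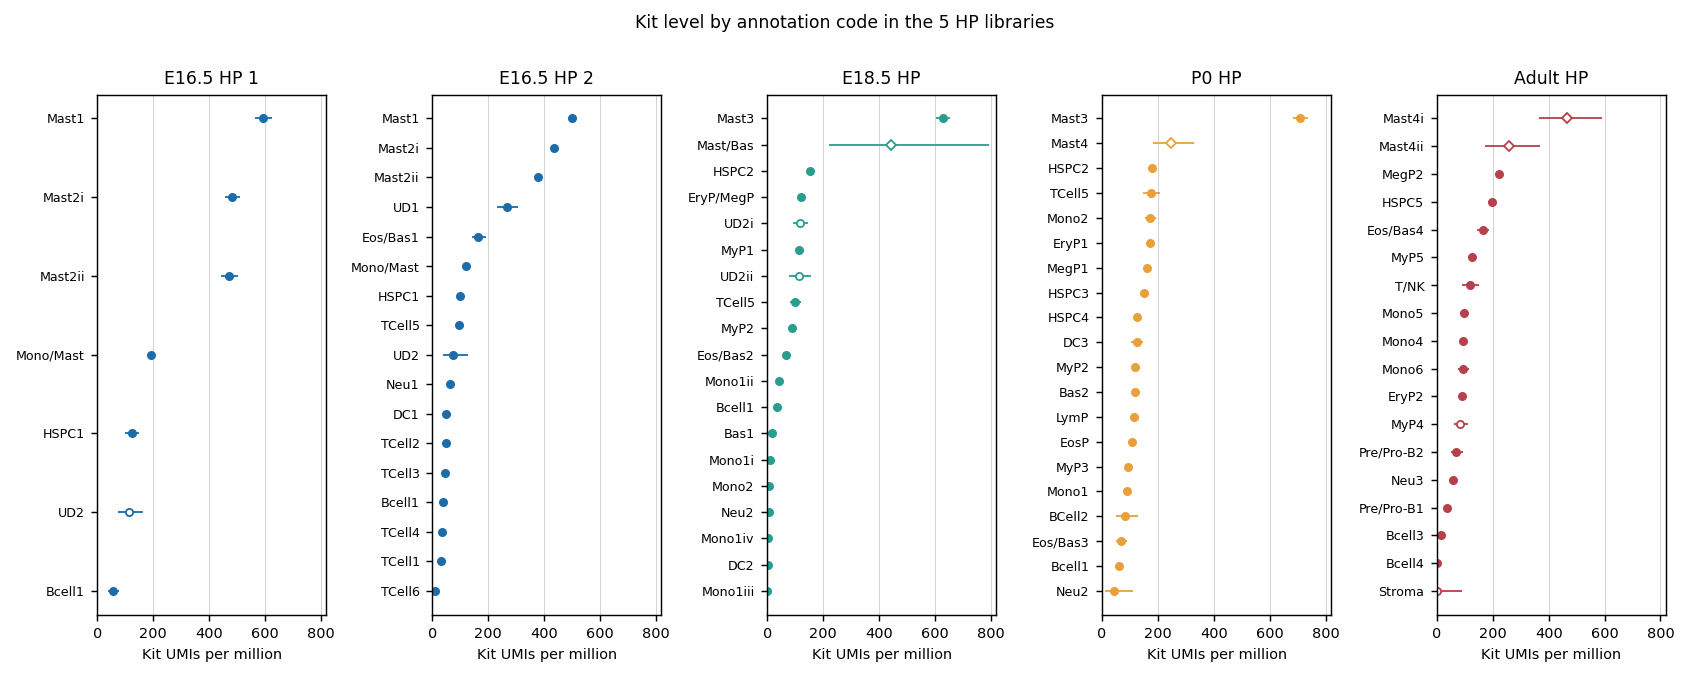
Kit CPM (linear axis) for each annotation code with at least 20 cells, 1 panel per HP library, bars giving exact Poisson 95% intervals. Open symbols are codes with a median under 1000 UMIs per cell, and diamonds are codes where over 50% of cells carry a barcode with at least 10 times the UMIs in another library; the filled mast codes stand at 377 to 709 CPM, and the Mast4 codes and Mast/Bas are diamonds.

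Stem and progenitor codes stood below Mast1, Mast2i, Mast2ii and Mast3, with some other codes among the stem and progenitor codes. P0 Mast4 was above the P0 HSPC codes only with the cells of shared barcodes counted, as given above. The interval of adult Mast4ii overlapped with those of HSPC5 and MegP2. In the second E16.5 library UD1 at 268 CPM, the eosinophil and basophil code Eos/Bas1 at 165 CPM and Mono/Mast at 121 CPM were above HSPC1, and Mono/Mast was above it in the first. In P0, TCell5 at 174 CPM and Mono2 at 173 CPM lay close to the highest HSPC code. Eos/Bas codes had 66.9 CPM in E18.5, 66.3 CPM in P0 and 164 CPM in the adult. HSPC codes had 122 CPM (99.7 to 148) and 97.7 CPM (87.1 to 109) in the E16.5 libraries, 153 CPM in E18.5, 125 to 178 CPM in the 3 codes of P0 and 196 CPM (184 to 208) in the adult. In P0, HSPC2, led by the stem cell genes Pdzk1ip1 and Procr, was higher at 178 CPM than HSPC3, led by Mecom and Hlf, at 149 CPM, and HSPC4 stood at 125 CPM. HSPC4 was led by Gfi1, Prtn3, Mpo and Elane, which mark granulocyte and monocyte progenitors, and none of the 7 HSPC markers was over 2-fold above the rest of the library there. Nor was any of the 4 myeloid progenitor markers (Mpo, Elane, Prtn3 and Ctsg). Their sum in HSPC4 was 9165 CPM, against 13461 CPM in MyP2 and 30955 CPM in MyP3 of P0. HSPC1 of E16.5 was led by Cd209a, a lectin gene of dendritic cells, in both libraries, with Flt3, the receptor gene of multipotent and lymphoid progenitors, among its 10 leading genes, and HSPC2 of E18.5 also had the fibroblast genes Col3a1 and Postn among its 10.

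Megakaryocyte progenitors were above the HSPC code in the adult, among the HSPC codes in P0 and, in a code joint with erythroid progenitors, below the HSPC code in E18.5. MegP2 of the adult, led by the platelet genes Pf4 and Vwf, had 223 CPM (208.3 to 238) against 196 CPM (184 to 207.7) in HSPC5, so that the intervals came close and did not overlap. In P0, MegP1 at 162 CPM lay between HSPC2 and HSPC3. MegP1 also had 3 of the 4 erythroid markers over 2-fold above the rest of the library, at 378 CPM in sum against 399 CPM in EryP1. Its 3 megakaryocyte markers summed to 204 CPM, against 2156 CPM in adult MegP2. Erythroid progenitors had 170 CPM in P0 (EryP1) and 89.9 CPM in the adult (EryP2), and the joint EryP/MegP code of E18.5 had 120 CPM (113 to 128), below HSPC2 at 153 CPM (145 to 161). Myeloid progenitors had 113 and 87.2 CPM in E18.5 (MyP1, MyP2), 118 and 92.8 CPM in P0 (MyP2, MyP3), and 124 CPM in adult MyP5. Lymphoid progenitors of P0 (LymP) had 113 CPM. Thus the progenitor codes of P0 and the adult covered a range of 82.7 to 223 CPM, all below Mast3 of P0 at 709 CPM. The lowest, adult MyP4, had a median of 570 UMIs per cell and stood at 76.1 CPM without the cells whose barcode is deeper elsewhere.

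Codes named for monocytes, neutrophils, dendritic cells and B cells spread from progenitor levels to no Kit UMI. They come from the same Lineage-Kit+ sort, and how mature their cells are was not tested. In E18.5, Kit was at 41.8 CPM in Mono1ii, 10.5 in Mono1i, 5.69 in Mono2 and 4.91 in Neu2. No Kit UMI was seen in the 61 Mono1iii cells, which allows up to 9.79 CPM, and 2 UMIs in 43 DC2 cells gave 1.72 CPM. B cell codes had 56.4 and 38.6 CPM in E16.5, 36.7 CPM in E18.5 and 59.5 CPM in P0 (Bcell1), and in the adult 13.7 CPM in Bcell3 and 1.59 CPM in Bcell4, where 1 cell of 105 had a Kit UMI. Codes of the same name stood at different levels at different stages: Mono2 had 5.69 CPM (1.55 to 14.6) in E18.5 and 173 CPM (154 to 194) in P0. In P0 Mono2, 4 of the 6 mast cell markers were over 2-fold above the rest of the library, at 2753 CPM in sum. Whether Mono2 holds the same kind of cell at both stages was not tested. The adult Mono4 to Mono6 had 93.0 to 97.8 CPM with Kit UMIs in 29.0% to 64.5% of cells. In the order of codes, 3 of 6 neighbouring pairs in the first E16.5 library, 7 of 16 in the second, 5 of 18 in E18.5, 3 of 19 in P0 and 4 of 17 in the adult had intervals that did not overlap, so in the last 4 of these libraries most neighbours could not be told apart by counting error.

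The E16.5 code Mono/Mast stood between mast and stem cell codes, at 191 and 121 CPM, and its Kit came from few cells. In the first library 49 of 161 cells had at least 5 Kit UMIs and held 97.6% of the Kit UMIs of the code, and in the second 35 of 142 cells held 84.8%. In these cells with at least 5 Kit UMIs the 6 mast cell markers summed to 36393 and 40701 CPM, against 84.8 and 864 CPM in the 104 and 72 cells of the code with no Kit UMI. The complement genes C1qa, C1qb and C1qc, which mark macrophages, summed to 3360 and 2812 CPM in the cells with at least 5 Kit UMIs and to 8371 and 5386 CPM in those with none. The 8 and 35 cells with 1 to 4 Kit UMIs lay between for the mast cell markers, at 30418 and 10247 CPM, and for the C1q genes, at 4655 and 3797 CPM. Cells with at least 5 Kit UMIs were also deeper, with medians of 39192 and 34276 UMIs against 16184 and 13769 in cells with none. At least 5 UMIs of the mast cell markers and at least 5 of the C1q genes were found together in 47 of the 49 and in 35 of the 35 cells with at least 5 Kit UMIs, against 4 of 104 and 30 of 72 cells with none. In Mast1 cells with as many Kit UMIs the mast cell markers were higher, as given above, though within Mast1 they did not rise with Kit, and the C1q genes were lower, at 2.99 and 9.17 CPM, and 0 of 97 and 4 of 640 such cells had 5 UMIs of both lists. Whether such barcodes hold 2 cells was not tested. Of the 161 cells in the first library, 88 carried a barcode that other libraries share, and Kit of the other 73 was 19.5 CPM. Leaving out shared barcodes also leaves out deeper cells of this library. Over all its codes the median was 23292 UMIs with them and 13813 without them. The part of depth in the 19.5 CPM was not tested.

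Mast codes held most Kit UMIs in E16.5 and few in the adult. Codes named Mast held 78.2% (95% binomial interval 77.1 to 79.4) and 81.0% of the Kit UMIs in the E16.5 libraries, where they were 46.2% and 38.0% of cells. In E18.5 they held 32.0% in 4.66% of cells, in P0 14.4% in 8.60% of cells, and in the adult 1.54% in 5.36% of cells. T cell codes were 45.1% of cells in the second E16.5 library and held 11.1% of its Kit UMIs. In the first they were 3.21% of cells and held 1.15%. Mono/Mast was 28.75% of cells in the first E16.5 library and 2.99% in the second, so the cell composition of the 2 libraries differed. From E18.5 on, progenitor classes held most of the rest: MyP 25.7%, HSPC 18.5% and EryP/MegP 13.2% in E18.5, HSPC 24.8%, EryP 14.9%, MyP 14.1% and MegP 13.6% in P0, and EryP 18.0%, HSPC 16.6%, MyP 16.5% and MegP 13.8% in the adult. The codes named Mono held 20.5% of the adult Kit UMIs. These shares follow both the number of cells of a class and their depth. With each cell weighted equally, the order changed: in the adult HSPC held 19.0%, MyP 17.9%, Mast 16.2%, MegP 14.7%, Mono 11.9% and EryP 5.81%, in P0 Mast held 26.5% and EryP 7.57%, and in E18.5 the shallow UD codes held 30.7%, MyP 11.3% and EryP/MegP 5.72%. Without all shared barcodes EryP/MegP held 8.31% in E18.5. The adult Mast share of UMIs was 0.378% without the cells whose barcode is at least 10 times deeper elsewhere and 0.128% without all shared barcodes. With 1 library per stage after E16.5 the stages were not tested for these shares.

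**Figure D2:**
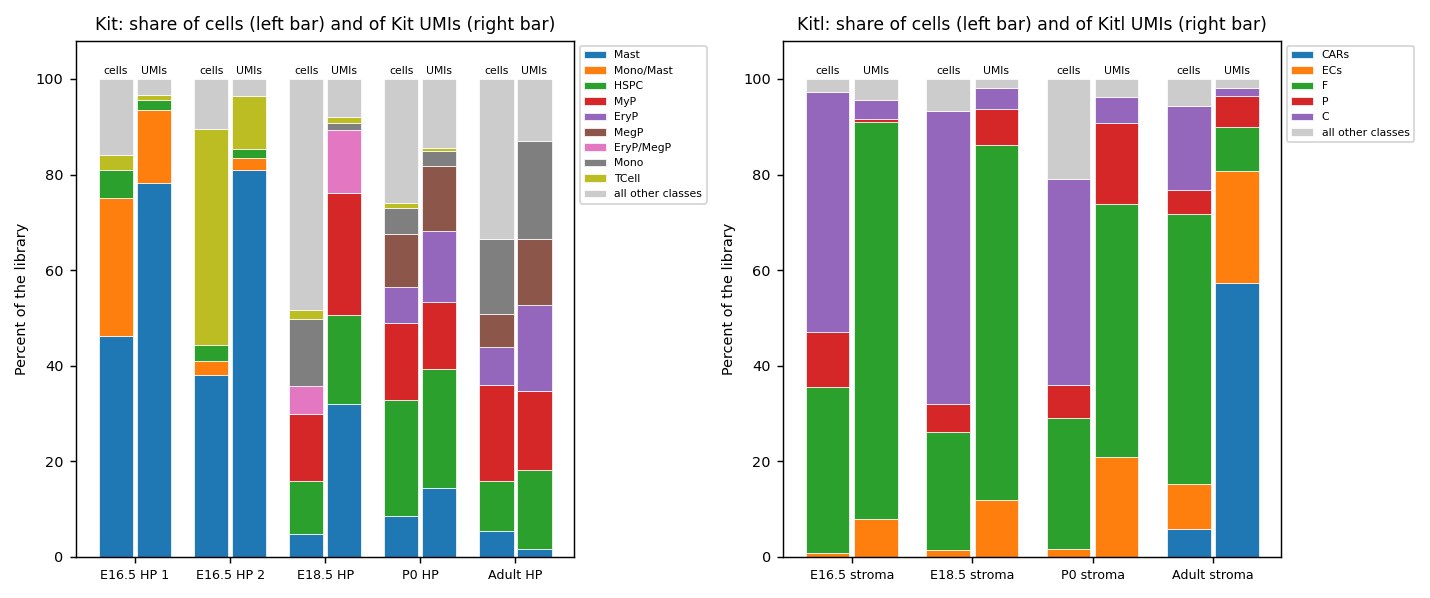
Stacked bars of the percent of cells (left bar) and of Kit or Kitl UMIs (right bar) in each class of codes, by library, with all other classes in grey. Mast codes hold 78.2% and 81.0% of Kit UMIs in E16.5 and 1.54% in the adult, and CARs hold 57.3% of Kitl UMIs in the adult.

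Stages were then compared with edgeR's quasi-likelihood test on counts summed per library, fitted over all genes with Benjamini-Hochberg adjustment. Each later stage was set against the same 2 E16.5 libraries, whose difference is the only measure of spread, and the single later libraries are assumed to vary like them. Log2 fold changes are given with their standard errors. Over all HPs Kit was at −1.15 ± 0.58 in E18.5 (adjusted p = 0.884), −0.79 ± 0.57 in P0 (adjusted p = 0.871) and −1.11 ± 0.58 in the adult (adjusted p = 0.423). The ratio between the 2 E16.5 libraries was larger than that between the second of them and any later library. These 2 libraries also differed in their T cell and Mono/Mast shares, as given above. The part of cell composition in that ratio was not tested. The test called 0.00621% of 16114 genes in E18.5, 0.292% in P0 and 2.35% in the adult, so few genes passed in these sums.

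Within the codes named HSPC, Kit was higher in value at each later stage, and 0 of the 3 comparisons passed. Kit was 122 and 97.7 CPM in E16.5, 153 in E18.5, 155 in P0 and 196 in the adult, and both E16.5 values lay below every later one. The log2 fold changes were 0.49 ± 0.42 in E18.5 (edgeR adjusted p = 0.822), 0.58 ± 0.42 in P0 (adjusted p = 0.760) and 1.09 ± 0.41 in the adult (adjusted p = 0.0857), in comparisons where 3.94%, 5.2% and 7.93% of 12163 genes were called. The sums follow the names of the codes, so the E16.5 sums are HSPC1, led by Cd209a, and the P0 sum holds HSPC4, led by granulocyte and monocyte progenitor genes, at 125 CPM beside HSPC2 at 178 and HSPC3 at 149 CPM. Marker sums also set E16.5 apart from the later stages. The 6 mast cell markers summed to 3586 and 4362 CPM in the E16.5 HSPC sums and to 64.3, 173 and 141 CPM in E18.5, P0 and the adult, and the 7 HSPC markers to 283 and 288 CPM and then to 666, 589 and 543 CPM. Among the later stages Kit was highest in the adult and the HSPC markers were lowest there. Without cells that share a barcode, 13 cells of the first E16.5 library were left at 66.3 CPM, and the adult difference was 1.48 (adjusted p = 0.957). These 13 cells were shallower, with a median of 13829 UMIs against 20866 in all 33 HSPC cells of that library. The part of these cells, of their depth and of the markers in the result was not tested.

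Within the codes named Mast, with Mast/Bas in E18.5, Kit was 516 and 446 CPM in E16.5, 629 in E18.5, 688 in P0 and 376 (306 to 458) in the adult. E18.5 and P0 lay above both E16.5 libraries and the adult below, with an interval that reaches the second E16.5 library. The log2 fold changes were 0.28 ± 0.38 in E18.5 (edgeR adjusted p = 0.705), 0.46 ± 0.38 in P0 (adjusted p = 0.525) and −0.47 ± 0.42 in the adult (adjusted p = 0.765), with 7.05%, 10.7% and 2.09% of 11394 genes called. By their names the sums also hold P0 Mast4 (274 of 534 cells) and adult Mast4ii (120 of 321 cells), with collagen or macrophage genes among their leading genes. Mast3 alone stood at 630 CPM in E18.5 and 709 CPM in P0, and Mast4i alone at 467 CPM. The adult sum had 99 Kit UMIs. Without the cells whose barcode is at least 10 times deeper elsewhere, 24 of them remained in 58 cells, at 337 CPM, and the adult difference was −0.93 (edgeR adjusted p = 0.479). Without all shared barcodes, 8 UMIs remained in 29 cells, at 275 CPM (119 to 542), and the difference was −1.58 (adjusted p = 0.286). Among the 9 stage comparisons of Kit, 0 passed with edgeR and 0 with DESeq2, and 1, the adult HSPC sum, had an unadjusted p under 0.05.

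Kit was also read in cells gated on 4 antibody tags, with a centered log-ratio (CLR) above 1 taken as positive for each. The level was set for these gates here, and the cells need not be those the study gated. Some tags had few counts. The second E16.5 library had 5623 Sca-1, 7065 CD135 and 5303 CD150 counts over 4752 cells, against 46946 Sca-1 counts over 3477 cells in E18.5. CD135 had 5021 counts over 6208 cells in P0 and 5705 over 5985 cells in the adult. Positive calls can rest on few counts there, and the part of tag counts in the values was not tested. Cells positive for Sca-1 and CD150 and negative for CD135 and CD48, the tag pattern of phenotypic long-term stem cells (phLT-HSC), numbered 10 and 28 in E16.5, 33 in E18.5, 114 in P0 and 134 in the adult. Their Kit was 92.3 (53.8 to 148) and 49.1 CPM (32.6 to 71.0) in E16.5, 203 CPM (170 to 241) in E18.5, 172 CPM (151 to 194) in P0 and 242 CPM (210 to 278) in the adult. The E16.5 values lay below every later value and their intervals did not overlap with the later ones. The codes of these cells differed between the stages as well. In E16.5, 9 of the 10 cells were Mono/Mast and 22 of the 28 cells were T cell codes, and none was of an HSPC code, whereas HSPC codes gave 23 of 33 cells in E18.5, 75 of 114 in P0 and 29 of 134 in the adult, where B cell codes gave 52. The gate held other codes in E16.5 than later, so its values do not compare stem cells between stages. phMPP2, the CD48-positive counterpart, had 323 and 115 CPM in E16.5, 126 in E18.5, 168 in P0 and 198 in the adult, and its E16.5 libraries lay on both sides of the later ones. Of its cells, 0 of 10 and 5 of 64 in E16.5, 23 of 74 in E18.5, 62 of 116 in P0 and 14 of 103 in the adult were of HSPC codes. These gates were set on few cells, and no test was made.

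Kit was next compared between cells positive and negative for each antibody, within each library, since the tags take no part in the mRNA counts. A cell was again called positive at a CLR above 1, under the same limit of low tag counts. For Sca-1, a marker of stem and multipotent cells, Kit in positive against negative cells was 282 against 366 and 73.1 against 207 CPM in E16.5, 137 against 125 in E18.5, 162 against 151 in P0 and 139 against 101 in the adult. Positive cells were lower in both E16.5 libraries and higher in the 3 later ones. With library as a block the log2 difference was −0.33 ± 0.25 (edgeR adjusted p = 0.378, 18.3% of 14208 genes called). Mast cell markers were lower in positive cells of all 5 libraries. In the second E16.5 library they summed to 6519 CPM in positive and 28246 CPM in negative cells and in the first to 26372 and 35805 CPM, in the same direction as Kit. In E18.5, P0 and the adult they summed to 1038 against 1470, 950 against 1153 and 170 against 304 CPM, opposite to Kit. HSPC markers were higher in positive cells there, at 581 against 185, 594 against 182 and 320 against 106 CPM, and in E16.5 they were at 171 against 176 and 134 against 128 CPM. The part of either marker list in the result was not tested.

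CD48, an antigen of progenitors past the stem cell, gave the widest gap, in the second E16.5 library. Kit was 60.3 CPM in positive and 264 CPM in negative cells of the second E16.5 library, where mast cell markers summed to 4318 and 37533 CPM and T cell markers to 5461 and 1940 CPM. It was 303 against 387 CPM in the first E16.5 library and then higher in positive cells, at 135 against 96.4 in E18.5, 160 against 150 in P0 and 111 against 107 in the adult. Mast cell markers went the same way as Kit in the first E16.5 library (27617 against 39114 CPM) and in E18.5 (1522 against 803 CPM) and the opposite way in P0 (768 against 1312 CPM) and the adult (212 against 337 CPM), and their part was not tested. In E18.5 the negative cells had a median of 589 UMIs and the positive cells one of 27344. The log2 difference was −0.37 ± 0.38 (edgeR adjusted p = 0.680, 0.0469% of 14931 genes called).

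For CD135, the FLT3 receptor of multipotent and lymphoid progenitors, the log2 difference in Kit was −0.25 ± 0.18 (edgeR adjusted p = 0.402, 0.311% of 13187 genes called). The second E16.5 library was again the one apart, with 90.2 against 198 CPM, while the other 4 libraries were within a ratio of 0.936 to 1.12. Mast cell markers summed there to 8477 CPM in positive and 26783 CPM in negative cells. They were at 34385 against 33687 CPM in the first E16.5 library, 927 against 1430 in E18.5, 478 against 1172 in P0 and 339 against 271 in the adult. HSPC markers were at 177 against 175 and 99.2 against 132 CPM in E16.5, 492 against 243 in E18.5, 529 against 239 in P0 and 322 against 131 in the adult. The part of either list was not tested for CD135. For CD150, an antigen of stem cells and megakaryocyte progenitors, Kit was 99.0 against 201 CPM in the second E16.5 library and 186 against 94.7 CPM in the adult, opposite directions, and the log2 difference was 0.02 ± 0.24 (edgeR adjusted p = 0.987, 1.63% of 13959 genes called). Mast cell markers moved in the same directions in these 2 libraries, at 13296 against 26851 CPM in the second E16.5 library and 402 against 255 CPM in the adult. In the first E16.5 library and in P0 they went opposite to Kit, at 35142 against 33427 CPM and 634 against 1223 CPM, and in E18.5 they were at 562 against 1556 CPM. Their part in the result was not tested. Of the 4 antibodies, 0 gave a Kit difference past the threshold with edgeR or with DESeq2, and 0 had an unadjusted p under 0.05.

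**Figure D3:**
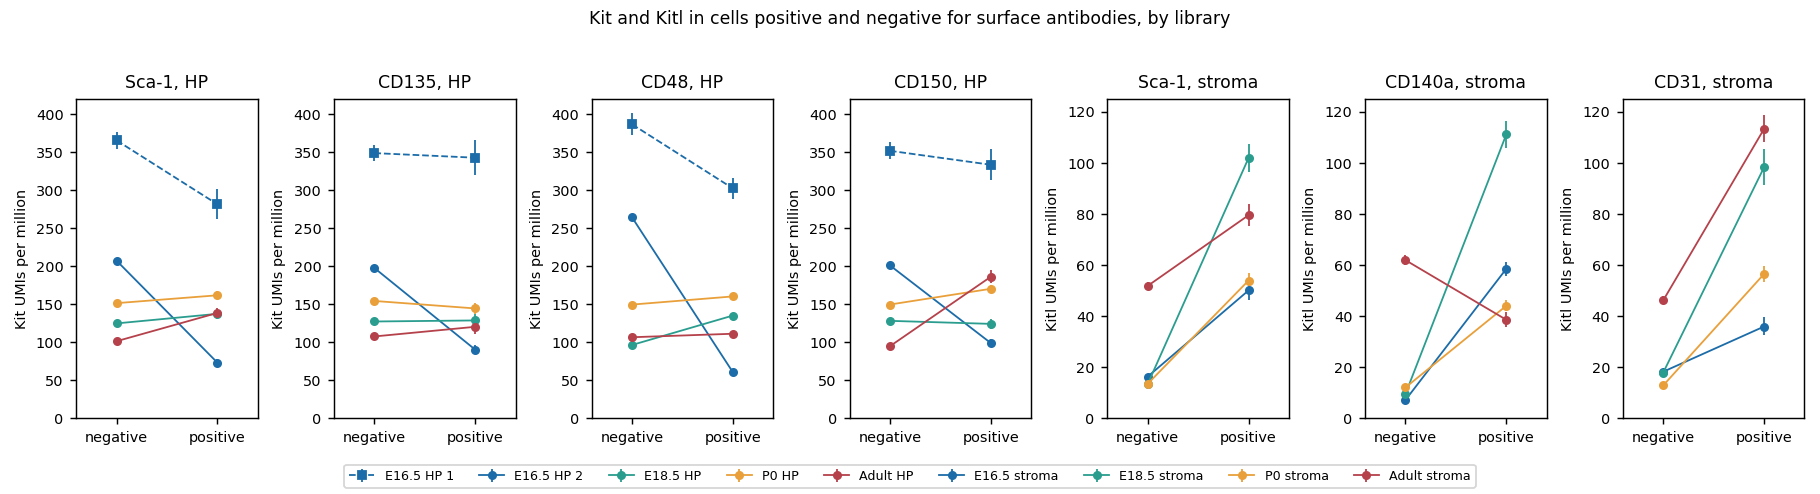
Kit (4 HP panels) and Kitl (3 stromal panels) CPM in cells negative and positive for 1 antibody tag, a line per library, with exact Poisson 95% intervals and the first E16.5 HP library dashed. Kitl is higher in positive cells of all 4 stromal libraries for Sca-1 and CD31 and lower in the adult for CD140a, while Kit lines run in both directions.

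Kitl in all stromal cells was 19.95 CPM (19.2 to 20.8) in E16.5, 23.4 CPM in E18.5, 18.2 CPM in P0 and 57.2 CPM (55.7 to 58.8) in the adult. The adult library was above the 3 perinatal ones, which lay within 18.2 to 23.4 CPM, and with 1 library per stage this was not tested. A Kitl UMI was found in 12.6%, 11.7%, 9.86% and 17.8% of stromal cells, against 0.117% to 2.68% of HPs, which should lack the ligand. Fewer cells of a type and fewer transcripts per cell cannot be told apart in these sums, and the codes below separate them in part.

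In the adult, CARs were the leading source. CARs had 1005 CPM (969 to 1041), with a Kitl UMI in 93.6% of 359 cells and in 61.0% after thinning to 1000 UMIs. The arterial endothelial code (AECs) had 468 CPM (441 to 496), with a UMI in 77.5% of 400 cells, and the sinusoidal code (SECs) 57.7 CPM (47.3 to 69.7), with a UMI in 19.6% of 194 cells. The 3 intervals did not overlap. All 5 CAR markers and all 5 endothelial markers were over 2-fold above the rest of the library in their codes. The authors named the codes from marker expression, so these values are not an independent check of the names.

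The other adult codes were below AECs, and 1 of them, P4, was above SECs. P4, led by the smooth muscle myosin gene Myh11, had 200 CPM (179 to 223), F8 26.7 CPM and bone-forming cells (Osteo) 17.8 CPM. The other 10 codes lay between 0.87 and 18.6 CPM. Among them were the codes named C, at 1.88 to 6.56 CPM, of which C9 and C10 had all 4 chondrocyte markers over 2-fold above the rest of the library. The deposited table does not spell out the letters C, F, P and UD, and codes are called by them here. CARs held 57.3% (56.0 to 58.7) of adult Kitl UMIs in 5.73% of cells, ECs 23.5% in 9.48% and all codes named F 9.11% in 56.6%.

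Before birth and at birth no code was named CARs, and Kitl lay mainly in codes named F and in ECs, and in P0 also in codes named P. E16.5 ECs had 213 CPM (183 to 246) and F6 199 CPM (181 to 218), followed by F3 at 72.4, UD1 at 60.9, F1 at 56.2 and F4 at 49.5 CPM. ECs and F6 could not be told apart. E18.5 F3ii had 410 CPM (386 to 434) and ECs 330 CPM (294 to 368), apart from each other, with P2 at 87.3 and F3i at 65.9 CPM. P0 ECs had 303 CPM (282 to 326), P2 165 CPM, F3i 63.5 CPM and both F3ii and F7 about 35 CPM, at 35.4 and 35.1 CPM. F6 of E16.5 and F3ii of E18.5 both had the agouti gene a and the transcription factor genes Hoxc13 and Twist2 among their 10 leading genes, whereas F3ii of P0 was led by the chemokines Cxcl2, Cxcl9 and Cxcl10. Whether the 2 codes of that name hold the same kind of cell was not tested.

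Endothelial Kitl was thus present at each stage, at 213, 330 and 303 CPM in perinatal ECs and at 289 CPM (273 to 306) in adult AECs and SECs summed. The endothelial share of all Kitl UMIs was 7.93%, 11.8%, 20.9% and 23.5% from E16.5 to the adult, while ECs were 0.863%, 1.42%, 1.58% and 9.48% of cells. Codes named F held 83.0%, 74.3%, 53.0% and 9.11%. With each cell weighted equally, ECs held 8.31%, 19.9%, 24.4% and 30.9% and codes named F 82.5%, 61.8%, 41.2% and 5.19%, while the codes named CF, 5.59% of cells in E18.5 and 15.6% in P0, went from 0.760% to 8.13% and from 2.17% to 16.3%. Codes named C were low, with 1.01 to 2.52 CPM in perinatal libraries, and in E16.5 those named P, 11.5% of cells, stood at 1.12 CPM in sum. Codes named P held 0.729% of the Kitl UMIs in E16.5, 7.56% in E18.5, 17.0% in P0 and 6.49% in the adult. Codes named C were 50.2%, 61.4% and 43.2% of perinatal cells and held 4.03% to 5.35% of the Kitl UMIs. Schwann cell codes kept a middle level of 31.5, 31.8 and 23.7 CPM. No Kitl UMI was found in P0 in the 129 cells of UD3, which was led by the melanocyte genes Tyrp1 and Dct, or in the 387 cells of UD2, which allows up to 14.9 and 15.2 CPM.

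**Figure D4:**
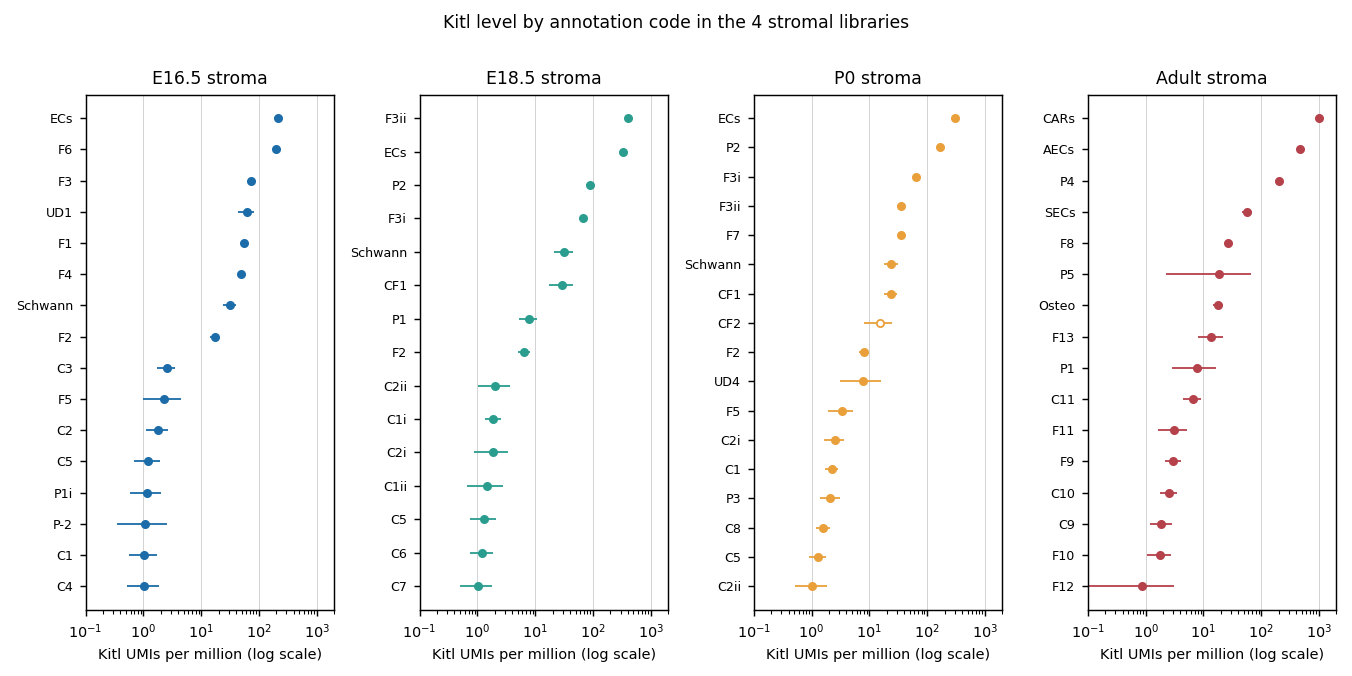
Kitl CPM (log axis) for each annotation code with at least 20 cells and at least 1 Kitl UMI, 1 panel per stromal library, bars giving exact Poisson 95% intervals and open symbols codes with a median under 1000 UMIs per cell. Adult CARs are highest at 1005 CPM, perinatal ECs lie at 213 to 330 CPM, and codes named C lie at 1.01 to 6.56 CPM.

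Within codes, Kitl was uneven. The 10% of cells with most Kitl UMIs held 23.9% of them in adult CARs, 37.3% in AECs, 50.1% in P4 and 83.2% in SECs, and 30.8% in E18.5 F3ii against 56.7% in F3i. This share falls as the number of UMIs per cell rises, so it does not compare the spread between codes of different level. In the order of codes, 4 of 15 neighbouring pairs in E16.5, 6 of 14 in E18.5, 4 of 18 in P0 and 4 of 15 in the adult had intervals apart.

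Surface antibodies gave a comparison that did not rest on the clusters. For CD31, the endothelial antigen PECAM1, Kitl in positive against negative stromal cells was 35.9 against 18.2 CPM in E16.5, 98.3 against 17.9 in E18.5, 56.5 against 12.8 in P0 and 113 against 46.2 in the adult. It was higher in positive cells of 4 of 4 libraries, with a log2 difference of 1.57 ± 0.24 (edgeR adjusted p = 0.0227, 4.54% of 16655 genes called). The 5 endothelial markers summed to 224, 525, 397 and 1528 CPM in positive and to 9.73 to 14.8 CPM in negative cells. Other stromal markers moved with the tag too. The 5 CAR markers summed to 67.0 against 55.9, 188 against 41.5, 133 against 58.6 and 1178 against 1222 CPM, and the 4 PaS markers, those of PDGFRA-positive Sca-1-positive cells (Pdgfra, Ly6a, Dpt and Mfap5), to 224 against 213, 505 against 229, 580 against 379 and 2404 against 926 CPM. The part of these lists in the result was not tested. The EC codes, or AECs in the adult, held 44.7%, 40.2%, 54.2% and 65.1% of the Kitl UMIs of positive cells. They were 9.54%, 19.9%, 13.6% and 32.0% of the positive cells, with SECs another 15.3% in the adult. Most positive cells of the perinatal libraries were thus of other codes, and the comparison does not set ECs against all other stroma. The call was lost without the E18.5 library (adjusted p = 0.127), without the P0 library (0.0955) and at a CLR of 0.75 (0.214).

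For Sca-1, carried in stroma by arterial ECs and by PDGFRA-positive fibroblasts, Kitl was 50.1 against 16.3 CPM in E16.5, 102 against 13.3 in E18.5, 53.9 against 13.5 in P0 and 79.5 against 51.8 in the adult. It was again higher in 4 of 4 libraries, by 1.68 ± 0.36 on the log2 scale (edgeR adjusted p = 0.0273, 17.6% of 16575 genes called). The code that held most Kitl UMIs of positive cells changed with stage: F3 with 42.6% in E16.5, F3ii with 60.3% in E18.5, F7 with 34.4% in P0 and AECs with 53.4% in the adult. The markers of several cell types were higher with the tag, in the order of stages: PaS markers, which include Ly6a, the gene of the tag's own antigen, summed to 618 against 165, 957 against 157, 1583 against 247 and 3496 against 608 CPM, and endothelial markers to 52.7 against 33.3, 109 against 37.9, 170 against 44.0 and 709 against 151 CPM. CAR markers were higher in the 3 perinatal libraries, at 82.2 against 53.9, 129 against 41.6 and 144 against 57.7 CPM, and lower in the adult, at 971 against 1274 CPM. The part of these lists was not tested. Only 21 of the 359 adult CARs were Sca-1 positive. This call was lost without E16.5 (adjusted p = 0.0774), E18.5 (0.0720) or P0 (0.129), and at a CLR of 0.75 (0.110).

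For CD140a, the receptor PDGFRA of mesenchymal cells, the libraries went in opposite directions. Kitl was 58.5 against 7.11 CPM in E16.5, 111 against 9.47 in E18.5 and 44.1 against 12.0 in P0, but 38.6 against 61.9 in the adult. The log2 difference over the 4 libraries was 1.89 ± 0.74 (edgeR adjusted p = 0.107, 29.5% of 16802 genes called), and it was 2.67 (adjusted p = 0.000395) without the adult library. In the adult, AECs gave 31.6% of the Kitl UMIs of positive cells, F8 26.4% and CARs 19.3%, the last from the 14 of 359 CARs that were CD140a positive. The 5 CAR markers summed there to 690 CPM in positive and 1348 CPM in negative cells, whereas in perinatal libraries they summed to 150 to 175 CPM in positive and 25.9 to 45.4 CPM in negative cells. The PaS markers, which include Pdgfra itself, were higher in positive cells of all 4 libraries, at 674 against 61.4, 1053 against 120, 1364 against 174 and 2760 against 767 CPM, and the part of either list was not tested.

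Other niche factors were read in the same codes, from a list of 9 genes. In the adult, CARs were highest in each of the 9, as they were in Kitl. The paper's description of CARs names Cxcl12, Kitl and Angpt1, so the lead in these genes is not independent of the code's name. Cxcl12 and Lepr are also among the CAR markers used here. The codes were made from expression, so the leads in the other genes are descriptions as well. Cxcl12, the chemokine that retains stem cells, stood at 20241 CPM in CARs and at 1936 CPM in AECs, the next code. The leptin receptor gene Lepr stood at 794 CPM against 51.2 CPM in F10, the lymphoid cytokine gene Il7 at 107 against 4.57 CPM in AECs, and Angpt1, the ligand of TIE2, at 160 against 41.7 CPM in F8. The transcription factor genes Ebf3 and Foxc1, which CARs need, stood at 500 and 413 CPM. The adhesion gene Vcam1 was at 1461 CPM, Csf1, the macrophage growth factor, at 422 CPM, and the matrix gene Spp1 at 9203 against 8025 CPM in Osteo, the closest of the 9.

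Perinatal stroma had no such single code. In E16.5 Cxcl12 was highest in F4, with 357 CPM, Vcam1 in F6, with 240 CPM, Ebf3 and Csf1 in F3, with 101 and 29.1 CPM, and Lepr in F2, with 24.8 CPM, while Kitl was highest in ECs. In E18.5 F3ii led in Kitl, Vcam1 (160 CPM), Lepr (52.5 CPM) and Csf1 (41.6 CPM), and ECs led in Cxcl12 (891 CPM). In P0, ECs led in Kitl and Lepr (33.6 CPM), and Cxcl12 stood at 564 CPM in UD4 and 551 CPM in ECs.

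**Figure D5:**
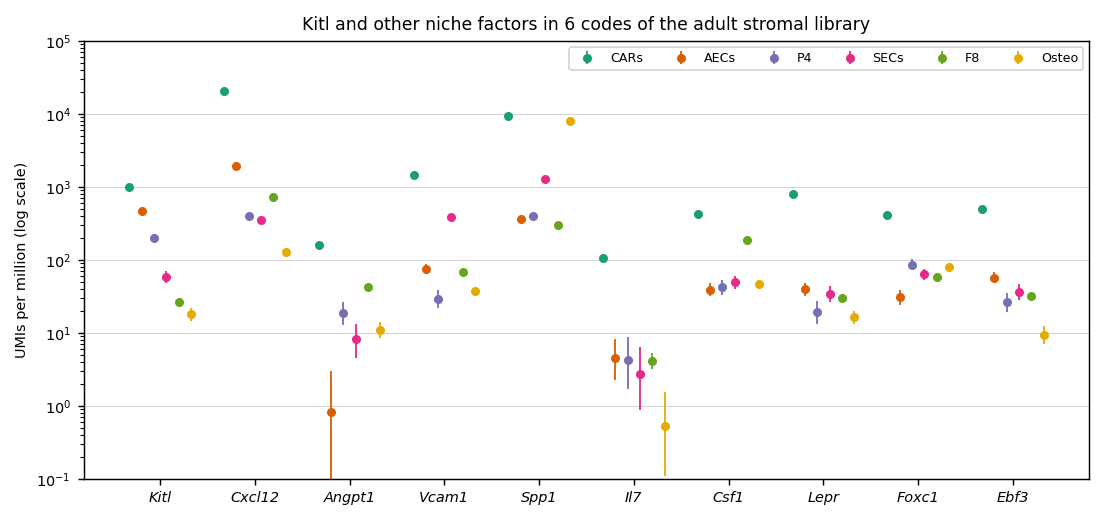
CPM (log axis) of Kitl and 9 other niche factors in 6 codes of the adult stromal library, with exact Poisson 95% intervals, genes with no UMI in a code left out. CARs are highest for all 10 genes, at 1005 CPM for Kitl and 20241 CPM for Cxcl12.

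The proteases that shed KIT ligand or KIT were also in the niche codes. Adam10 stood at 166 and 141 CPM in adult AECs and SECs and at 65.3 CPM in CARs, Adam17 at 71.1, 64.2 and 51.7 CPM, and Mmp9, known to release soluble KIT ligand, at 120 CPM in CARs and at most 2.9 CPM in AECs, SECs, P4, F8 and Osteo. In the antibody comparisons, where 10.2% of all genes were called higher and 7.44% lower for Sca-1, 12.9% and 16.6% for CD140a and 3.53% and 1.01% for CD31, 2 of the 6 genes of this list rose in Sca-1-positive cells, Adam10 by 0.70 and Mmp14 by 0.36, and both also rose in CD140a-positive cells, by 0.79 and 0.82. Adam10 rose by 0.89 in CD31-positive cells. The median over the list was 0.21, 0.32 and 0.10 against medians of all genes of −0.02, −0.05 and −0.06.

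Of the 9 niche factors, 2 rose and 2 fell with Sca-1 (Csf1 1.24, Ebf3 0.85, Spp1 −0.77, Foxc1 −0.66), and 3 rose and 2 fell with CD140a (Csf1 1.38, Ebf3 1.29, Spp1 −2.14 and Foxc1 −0.98 among them). With CD31 1 fell, Spp1, at −1.18. Cxcl12 passed in none of these comparisons, at 0.83 for Sca-1 (edgeR adjusted p = 0.137), 1.60 for CD140a (0.118) and 0.89 for CD31 (0.183). The median over the list was 0.39, 0.76 and 0.00 against medians of all genes of −0.02, −0.05 and −0.06. Of the genes that act below KIT, 12 signalling and 10 restraint genes were tested. Of the signalling genes 2 rose and 1 fell for Sca-1, where 17.6% of all genes were called, 3 rose and 3 fell for CD140a (29.5%), and 2 rose for CD31 (4.54%). Of the restraint genes 1 rose and 1 fell for Sca-1, 2 fell for CD140a and 2 rose for CD31, Sh2b3 by 0.78 and the lipid phosphatase gene Inpp5d, a gene of blood cells, by 4.55. Blood cell markers were higher in the same CD31-positive cells, at 18.3 against 3.15 CPM in P0 and 184 against 70.7 CPM in the adult, and their part was not tested.

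Genes downstream of KIT and its regulators were followed in HPs from fixed lists. In the HSPC sums, 0.987%, 1.37% and 3.59% of all genes were called higher and 2.95%, 3.82% and 4.34% lower in E18.5, P0 and the adult. Angpt1 rose at each stage, by 1.61, 1.69 and 2.31, from 26.4 and 34.9 CPM in E16.5 to 95.9, 96.7 and 132 CPM, and Adam8, a protease gene of myeloid cells, fell by 3.43, 3.50 and 4.87. Monocyte markers were lower in the same sums, at 760 and 560 CPM in E16.5 and 87.1, 131 and 164 CPM later, beside the mast cell markers given above, and their part in these calls was not tested. Lmo2, a partner of TAL1 and GATA factors, rose in P0 by 1.36 and in the adult by 1.80. Of the 13 KIT signalling genes only Stat5b passed in these sums, in the adult, at 1.37 (edgeR adjusted p = 0.0213), and of the 10 genes that restrain KIT only the phosphatase gene Ptpn6, in the adult, at −1.37 (adjusted p = 0.0301). The median of the signalling list was 0.21, −0.15 and −0.11 over the 3 stages and that of all genes 0.01, 0.01 and −0.04.

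In the Mast sums, 5.18%, 8.48% and 2.05% of all genes were called higher and 1.87%, 2.24% and 0.0351% lower. Here 1 of 13 signalling genes rose in E18.5 (Jak2, 1.25) and 4 in P0: the adaptor gene Gab2 by 1.56, Jak2 by 1.21, the PI3-kinase subunit gene Pik3r1 by 1.15 and the SRC-family kinase gene Lyn by 0.99. Of the restraint list the ubiquitin ligase gene Cbl rose in E18.5 by 1.098 and Socs1 fell in P0, at −1.40. Of the 7 regulators Runx1 rose in E18.5 and P0, by 2.43 and 2.21, and Lmo2 in P0 and the adult, by 2.72 and 2.99. Markers moved in these sums too. Mast cell markers summed to 52628 and 67425 CPM in E16.5, 16974 in E18.5, 24340 in P0 and 33958 in the adult, and monocyte markers to 57.7 and 11.7, then 136, 126 and 699 CPM. Fibroblast markers were at 0.27 and 0.37 CPM in E16.5, 0.47 in E18.5, 39.7 in P0 and 15.2 in the adult. The P0 sum includes Mast4, with 47 of its 2828 Kit UMIs, and the part of these cells in the calls was not tested. Gata2 and Mitf, which mast cells require, passed at no stage in these sums. Of the 5 niche factors tested, 3 rose in E18.5, Angpt1 by 3.72, Lepr by 2.83 and Csf1 by 1.36, and 2 in P0, Angpt1 by 3.01 and Csf1 by 1.33, with medians of 2.5997 and 2.15 against 0.11 and 0.08 for all genes. Angpt1 went from 6.79 and 5.63 CPM in E16.5 to 87.1 and 51.1 CPM, whereas Lepr stayed at or below 3.79 CPM. Of the 5 shedding genes tested Mmp14 rose in P0, by 3.11, from 1.22 and 0.24 to 5.11 CPM. In the adult Mast sum Vcam1, the only niche factor called there, was at 190 CPM against 0.68 and 0.06 CPM in E16.5, beside the macrophage genes that led Mast4ii. All 3 calls of list genes in the adult sums of all HPs were outside the signalling list: Socs1 fell by 3.06, the mast cell and melanocyte regulator Mitf fell by 3.91, and Lepr rose by 3.55, where 1.35% of all genes were called higher and 0.993% lower. In these sums mast cell markers went from 33811 and 25041 CPM in E16.5 to 277 CPM in the adult and myeloid progenitor markers from 358 and 741 to 9173 CPM, and their part in the calls was not tested.

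Between Sca-1-positive and negative HPs, the regulators Gata1, Gata2 and Tal1 fell, at −1.85, −1.06 and −0.78, and 4 of 7 did not pass, where 7.96% of all genes were called higher and 10.3% lower. Gata2 is also 1 of the 6 mast cell markers, whose sum was lower in positive cells of all 5 libraries, as given above, and the part of mast cells in these calls was not tested. Among signalling genes Pik3r1 rose by 0.43 and Grb2 fell by 0.25, and of the niche factors Csf1 fell by 1.44. For CD135, CD48 and CD150, 0 of the 7 regulators passed with edgeR, while 5, 2 and 2 had an unadjusted p under 0.05, as had 3236 of 13187, 2170 of 14931 and 2655 of 13959 of all genes, and DESeq2 was not read for the lists. For CD150, where 0.43% of all genes were called higher and 1.2% lower, 1 gene of the 5 lists passed, Csf1, which fell by 1.81.

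The genes whose pattern over codes was most like that of Kit or Kitl were taken by correlation. Over 73 code and library sums of at least 50 cells, the Pearson r of log2(CPM + 1) with Kit was highest among 5825 genes for Decr1 (0.83), a fatty acid oxidation enzyme, Nme4 (0.79), a mitochondrial nucleotide kinase, Kdsr (0.78), an enzyme of ceramide synthesis, Plpp5 (0.78), a lipid phosphatase, and Fdx1 (0.73), a ferredoxin. Among the regulators r was 0.61 for Gata1, 0.60 for Gata2, 0.53 for Tal1, 0.41 for Mitf, 0.37 for Myb, −0.06 for Lmo2 and −0.39 for Runx1, and the median of all genes was 0.16. For Kitl, over 65 sums and 5897 genes, r was highest for BC028528 (0.86), Rasgrp2 (0.84), an activator of RAP1, Rbpms (0.82), an RNA-binding protein, Cxcl12 (0.82) and Nrp1 (0.80), a co-receptor of VEGF, and the median was 0.15. Sums of 1 library share depth and stage, and these values are descriptions.

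Each gene was also found outside its own sort at low levels. Kit in CD31-positive against negative stroma was 5.12 against 1.17 CPM in E16.5, 6.46 against 0.56 in E18.5, 3.21 against 0.70 in P0 and 7.54 against 1.49 in the adult. The log2 difference was 2.36 ± 0.25 (edgeR adjusted p = 0.00629, 4.54% of 16655 genes called). It rests on 50 to 114 Kit UMIs in the positive cells of a library. The comparison was planned for Kitl, and no alternative setting was read for Kit. Positive cells were above negative ones in 4 of 4 libraries. The 4 blood cell markers in stroma (Ptprc, Lyz2, Hbb-bs and Spi1) summed in the same cells to 5.81 against 2.69, 2.71 against 2.20, 18.3 against 3.15 and 184 against 70.7 CPM, and their part in the result was not tested.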

How the data were processed

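Single-cell mRNA and antibody tag (CITE-Seq) libraries of the same cells were used, 9 of each. UMI counts of 2 kinds, neither normalized, were deposited by the authors, for mRNA (genes by cells) and for antibody tags, with a table of the library and annotation code of every cell. The submitters' processing notes name Cell Ranger 3.1.0, R 4.0, Seurat 3.1.5 and mm10. Code names were used as deposited, no doublet caller was run, and cells were tied to libraries by the deposited table. Antibody counts were CLR transformed, with cells above 1 called positive.

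Counts were summed per library and cell set and tested with edgeR 4.0.16 (quasi-likelihood, TMM, low counts filtered, R 4.3.3), over all genes passing the filter, with a Benjamini-Hochberg threshold of 0.05. DESeq2 1.42.0 was the alternative. Stage fits had 1 residual degree of freedom, and antibody fits had library as a block, since positive and negative cells came from the same library. The script was tested on simulated counts. Intervals are exact (Poisson, Clopper-Pearson, 95%).

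The members and lists were chosen with earlier results of these data known. The genes named are Kit and Kitl in codes of at least 20 cells, up to 4 genes per list with the largest changes past the threshold, and the 5 most alike. Levels of list genes by code or stage, and genes whose calls are lost, were added after values were seen.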

Additional observations from a re-analysis of the deposited data

Results flagged for a closer look

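Kit was seen in stromal codes, outside the sort that selects for it, above 10 CPM. In CPM, ECs had 42.5 in E16.5 (37 UMIs in 22 of 71 cells), 40.4 in E18.5 and 21.3 in P0, and in the adult SECs had 28.6 and AECs 17.9. CARs of the adult had 32.3 CPM, from 97 UMIs in 36 of 359 cells. Schwann cell codes had 16.3, 14.3 and 15.4 CPM in E16.5, E18.5 and P0, the E16.5 code UD1 42.2 CPM, and the E18.5 code P2 12.6 CPM. These levels lie below those of HSPC codes, at 97.7 to 196 CPM, and free RNA from blood cells was not tested.

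Kitl was seen in 3 HP codes above 10 CPM. The E16.5 code UD2 of the second library had 36.8 CPM from 6 UMIs, and E18.5 Mono1ii 11.3 CPM from 20 UMIs. The adult HP code named Stroma had 366 CPM, from 15 UMIs in 1 cell of 56.

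The difference between antibody-positive and negative cells ran in opposite directions at different stages. Whether the stages differ was not tested, nor was the part of the low tag counts in HPs. For Kit and Sca-1 the log2 ratio was −0.38 and −1.51 in E16.5, 0.14 in E18.5, 0.095 in P0 and 0.45 in the adult. For Kit and CD48 it was −0.36 and −2.13 in E16.5, 0.49 in E18.5 and 0.10 in P0. For Kit and CD135 it was −0.095 in P0 and 0.16 in the adult, and −0.025 and −1.13 in E16.5 and 0.016 in E18.5. For Kit and CD150 it was −0.077 and −1.02 in E16.5, −0.046 in E18.5, 0.19 in P0 and 0.97 in the adult, with intervals that overlapped in the first E16.5 library and in E18.5 for both antibodies. For Kitl and CD140a it was 3.04 in E16.5, 3.55 in E18.5, 1.87 in P0 and −0.68 in the adult.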

How the results depend on the processing

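With 1 library per stage after E16.5, stage differences cannot be told apart from differences between libraries, and counting depth limits the codes with medians under 1000 UMIs. Alternatives that leave out cells with shared barcodes were chosen after seeing the data. No paired analysis was possible because later stages have 1 library each, so the stages share only replicate number 1. The antibody fits pair positive and negative cells of a library, and with no replicate block the Kitl difference was 1.496 for Sca-1 (edgeR adjusted p = 0.480) and 1.54 for CD31 (adjusted p = 0.357), both no longer past the threshold.

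Of the 9 stage comparisons of Kit, 1 passed under 1 alternative, the adult HSPC sum with upper quartile normalization (1.20, edgeR adjusted p = 0.0464; 0.0464 to 0.957 over 6 alternatives). Leaving out either E16.5 library gives values with no test: −1.51 to −0.71, −1.17 to −0.35 and −1.51 to −0.69 over all HPs, 0.38 to 0.64, 0.46 to 0.72 and 0.95 to 1.21 for HSPC, and 0.076 to 0.29, 0.25 to 0.46 and −0.67 to −0.47 for Mast, in the order E18.5, P0, adult. The adult Mast value was −0.76 in cells of at least 1000 UMIs, −0.93 without the shallower partners and −1.58 without shared barcodes (edgeR adjusted p = 0.599, 0.479 and 0.286). For Kit by antibody, leaving out libraries gave −0.51 to −0.031 for Sca-1, −0.36 to −0.027 for CD135, −0.61 to 0.051 for CD48, which turned without the second E16.5 library, and −0.23 to 0.27 for CD150, which turned without P0 (−0.026) or the adult. CD150 also turned with no filter on low counts (−0.0021) and without shared barcodes (−0.15).

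For Kitl, a CLR level of 0.75 gave 1.14 for Sca-1 and 1.098 for CD31. Leaving out libraries gave 1.30 to 2.11 for Sca-1, 1.33 to 2.67 for CD140a and 1.34 to 1.79 for CD31. CD140a passed with DESeq2 (1.93, adjusted p = 0.0480) and without the adult library. Over 13 alternatives the adjusted p ran from 0.000744 to 0.480 for Sca-1 (8 past the threshold), from 0.000395 to 0.396 for CD140a (2) and from 1.5e-07 to 0.357 for CD31 (9).

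Without mitochondrial and ribosomal protein genes and Gm42418, the highest codes stood at 863, 680.3, 924, 1037 and 685 CPM of Kit (Mast1 in both E16.5 libraries, Mast3 in E18.5 and P0, Mast4i) and at 309, 543, 417 and 1135 CPM of Kitl (E16.5 ECs, E18.5 F3ii, P0 ECs, CARs). As a mean over cells, Kit was 537 in Mast1 of the second library, 715 and 775 in Mast3 of E18.5 and P0, and Kitl 333 in P0 ECs and 1198 in CARs. Mast4i stood at 613 without shared barcodes, where the whole adult Mast sum had 8 Kit UMIs in 29 cells. With each cell weighted equally, class shares were 84.1% (Mast, second E16.5 library), 26.3%, 26.5% and 16.2% (Mast, E18.5, P0 and adult), 11.3% (MyP, E18.5), 5.81% and 11.9% (EryP and Mono, adult), 61.8% and 41.2% (codes named F, E18.5 and P0), and without shared barcodes Mast held 88.7% in the first E16.5 library and 38.2% in E18.5.

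The number of genes called moved by over 1.5 times. Against 1, 47 and 378 over all HPs, DESeq2 called 342, 558 and 1133, no filter 485, 713 and 1515, and sums without shared barcodes 106, 248 and 748. Against 479, 632 and 965 for HSPC, DESeq2 called 231, 303 and 395, and sums without shared barcodes 117, 163 and 189. Against 803, 1221 and 238 for Mast, DESeq2 called 105, 126 and 125, and sums without shared barcodes 534 in E18.5 and 705 in P0. No filter called 1265 in E18.5 and 394 in the adult, cells of at least 1000 UMIs 1248 in E18.5, and sums without the shallower partner 1264 there. For Sca-1 in HPs, 2596 became 1213 at a CLR of 0.75 and 1487 without shared barcodes. For CD135, 41 became 1020 with DESeq2, 469 with no filter, 196 and 1247 at CLR 0.75 and 1.5 and 600 without shared barcodes. For CD48, 7 became 434, 32, 13 at CLR 1.5, 15 without shared barcodes and 4 without the shallower partner. For CD150, 228 became 810, 404, 120 and 642 at the 2 CLR levels and 420 without shared barcodes. All 4 became 0 with no block. In stroma, Sca-1 went from 2923 to 227 at CLR 0.75 and 4 with no block, CD140a from 4954 to 246 with no block, and CD31 from 756 to 2078 with DESeq2, 1398 with no filter, 64 and 3731 at the 2 CLR levels and 130 with no block. Leaving out 1 library gave 173 to 3672, 0 to 1141, 0 to 11 and 33 to 560 calls for Sca-1, CD135, CD48 and CD150 in HPs, and 498 to 3980, 789 to 7303 and 159 to 1473 for Sca-1, CD140a and CD31 in stroma.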
